A study of Homo sapiens with 19 samples.

Results

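Mesenchymal cells made up 7740 of the 23754 cells that passed the cell filter in 4 libraries of human liver organoids on day 25, and these cells are described here. A cell was counted as mesenchymal when 500 or more genes were detected in it, when mitochondrial genes took no more than 20% of its counts, when the collagen genes COL1A2 and COL3A1 together gave at least 2 unique molecular identifiers (UMIs, the count of captured RNA molecules) and at least 0.1% of the cell's UMIs, and when it held 0 UMIs of the epithelial adhesion gene EPCAM. The other 16014 cells of the same 4 libraries are called the remaining cells. The 3 genes of the gate chose the members, so their levels are not results, and every level in members against remaining cells is a description with no test.

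The organoids were grown from W01, a human pluripotent stem cell line distributed by WiCell, of wild-type genotype. Their RNA was read as single cells with the 10x Genomics 3′ version 3 chemistry. The 4 libraries came from organoids kept on an orbital shaker (OS), 2 from untreated organoids and 2 from the control organoids of an experiment with OA. The labels do not spell out OA, and they do not say what the control organoids received. All had an added wash and a longer trypsin step than the youngest organoids of the series, per the labels. Both groups were collected on day 25, and all organoids came from the same line, so differences between donors are not represented. Nothing in the labels says whether replicates were separate cultures, so p-values measure only the spread between these libraries, which may be technical. The OA libraries themselves, named for 500 µM in their titles, held 41 and 32 cells that met the rule (1.33% and 0.993% of their cells), and their profiles were not analysed. The whole series held 120240 cells passing the filter in 19 libraries.

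Mesenchymal cells of the liver lay down the collagen matrix, send growth factors to the neighbouring epithelium and, in disease, become the myofibroblasts of scar tissue. In the adult organ they include stellate cells, which store retinyl esters, portal fibroblasts around the bile ducts, and the smooth muscle cells and pericytes of vessels. In the embryo the liver bud invades the septum transversum, and the mesoderm around the gut tube responds to hedgehog ligands from the epithelium.

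In the order untreated replicate 1, untreated replicate 2, OA control replicate 1 and OA control replicate 2, which holds for all lists of 4 values below, the libraries contributed 3508, 1443, 1780 and 1009 mesenchymal cells. These were 37.0%, 25.2%, 32.6% and 32.6% of the cells passing the filter, with exact 95% binomial intervals of 36.0% to 38.0%, 24.1% to 26.4%, 31.4% to 33.9% and 31.0% to 34.3% that cover counting error only. The untreated libraries lay on either side of the OA control libraries, so the groups overlapped. The mean difference of 1.504 percentage points, OA control minus untreated, gave p = 1 in an exact two-sided permutation test, where 2 libraries against 2 cannot go below 0.333. The difference became -0.356 points with every cell thinned to 1000 UMIs, -1.36 with a stricter gate and -1.99 without the EPCAM condition, and it was -4.40 without untreated replicate 2 and 7.40 without untreated replicate 1.

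**Figure D1:**
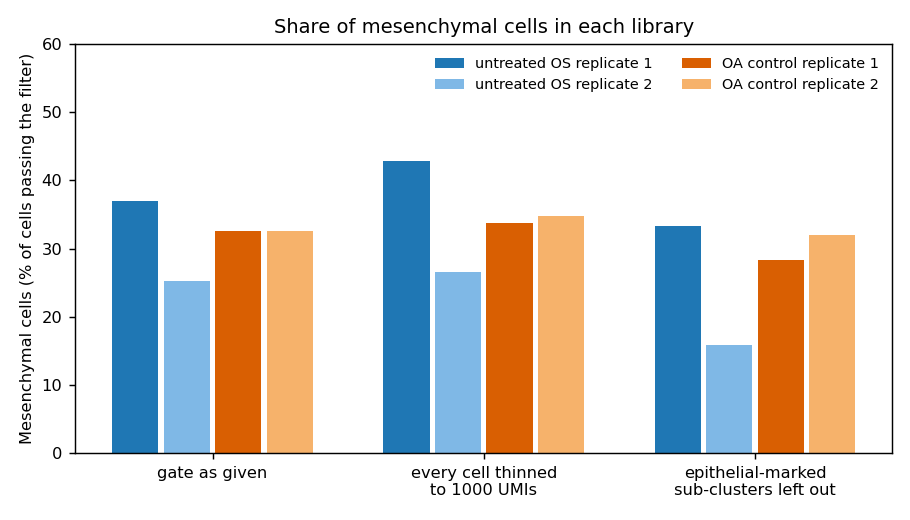
Share of cells passing the filter that met the mesenchymal gate, in percent, with 1 bar per library, for the gate as given, for cells thinned to 1000 UMIs and with the epithelial-marked sub-clusters left out. With the gate as given the bars stand at 37.0%, 25.2%, 32.6% and 32.6%, so untreated replicate 1 is the highest and untreated replicate 2 the lowest, and the order of these 2 libraries holds in all 3 sets of bars.

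The libraries differed in depth. Mesenchymal cells held a median of 3499, 1856, 4339 and 12538 UMIs, remaining cells 4846, 2475, 6489 and 15359.5, and the mesenchymal cells' summed UMIs ran from 4469855 in untreated replicate 2 to 15368624 in untreated replicate 1. Pairs of libraries among the 4 shared between 7 and 20 cell barcodes, at most 0.426% of the smaller library, and at most 2 of these were mesenchymal in both. At the edge of the gate, 51, 129, 50 and 25 members held exactly 2 UMIs of the gate genes, and 188, 241, 116 and 101 cells without EPCAM stayed outside with 1 UMI. A further 1561, 658, 564 and 329 cells passed the collagen conditions and were kept out only by EPCAM UMIs, so the remaining cells were not free of cells with collagen UMIs. Whether these cells expressed collagen was not tested. The median share of UMIs on the gate genes in the cells kept out only by EPCAM was 0.338%, 0.257%, 0.259% and 0.218%, against 0.691%, 0.556%, 0.485% and 0.477% in members.

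Some members went against the mesenchymal label. Clustering of the 7740 cells gave 9 sub-clusters, and in 2 of them at least 3 hepatocyte or gut and ductal markers were among the 50 leading genes. These 2 sub-clusters, with 1125 cells, held 9.78%, 37.0%, 12.9% and 1.78% of the members. Untreated replicate 2, the shallowest library, held the largest share of them. Summed epithelial levels and the calls of the comparison are therefore given with and without them. Ratios and levels of single genes include these cells unless stated. Doublets, droplets with more than 1 cell, were searched with Scrublet, whose default threshold marked 0% to 0.905% of cells per library. A share scaled to the number of barcodes, 8.07%, 6.32%, 5.48% and 2.81%, was left out as an alternative.

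Mesenchymal markers that the gate did not use are described next. A doublet or free RNA could bring them in along with the gate genes, so their levels do not test the label. Levels are given as CPM, a gene's UMIs scaled to one common total for the summed cells of each library, and ratios as log2 of members over remaining cells after adding 1 CPM to each. COL1A1, the partner chain of COL1A2 in type I collagen, stood at 3627, 4006, 3172 and 3752 CPM in members and at 541, 188, 164 and 355 CPM in remaining cells. PDGFRA, a platelet-derived growth factor receptor of fibroblasts, stood at 339, 275, 229.6 and 203 against 36.1, 10.3, 8.86 and 16.1 CPM. DCN, the matrix proteoglycan decorin, stood at 407, 391, 371 and 322 against 72.5, 22.6, 18.6 and 29.4 CPM. In each of the 4 libraries all 3 genes were higher in members, and the remaining-cell values were highest in untreated replicate 1, which had the most cells kept out only by EPCAM. After thinning every cell to 1000 UMIs, a DCN UMI was found in 27.3, 24.2, 25.6 and 20.5% of members. It was found in 0.421, 0.421, 0.349 and 0.141% of EPCAM-positive cells without COL1A2 and COL3A1 UMIs, which serve as a comparison. That choice favours cells with little free mesenchymal RNA, so their share may understate it. Without thinning these shares were 56.9, 40.1, 57.1 and 62.9% and 1.69, 1.22, 1.53 and 2.94%, at median depths of 3499, 1856, 4339 and 12538 UMIs in members and 4720, 3696, 8290 and 16080 UMIs in the EPCAM-positive cells. VIM, the intermediate filament vimentin, was less selective, with 91.01, 76.00, 88.3 and 92.5% of thinned members. The thinned EPCAM-positive cells, which may express VIM themselves, had 49.7, 21.2, 31.9 and 36.9%.

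Matrix genes were higher in members almost throughout. Of 9480 genes with at least 10 CPM in members or remaining cells, 818 had a log2 ratio over 1 in all 4 libraries, which is 8.63% of them, and 982, or 10.4%, had one under -1. Because the gate fixed this contrast, nothing is read from the shares. Among the fibrillar and matrix collagens 13 of the 13 genes at that level were over 1 in all 4 libraries, with a median log2 ratio of 3.33 against 0.07 over all genes. COL6A3, a chain of the beaded type VI collagen, stood at 1127, 1462, 1235 and 1084 CPM in members and 129, 57.02, 51.7 and 76.6 CPM in remaining cells, a log2 ratio of 4.03 ± 0.72 (mean ± SD, n = 4 libraries). COL8A1, a short-chain collagen of vessel walls, had a log2 ratio of 3.62 ± 0.59, and COL12A1, which decorates collagen fibrils, one of 3.19 ± 0.58. The basement membrane chains COL4A1 and COL4A2 had log2 ratios of 2.91 ± 0.37 and 2.23 ± 0.33.

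Of the other matrix proteins 21 of 25 were over 1 in all 4 libraries. EMILIN1, a glycoprotein of elastic fibres, stood at 232, 234, 275 and 301 CPM in members and 25.1, 8.78, 11.6 and 20.3 CPM in remaining cells. OGN, the small proteoglycan osteoglycin, stood at 58.6, 36.9, 67.7 and 49.3 against 5.44, 1.79, 2.97 and 3.48 CPM. POSTN (periostin) and LUM (lumican), both secreted into collagen-rich tissue, had log2 ratios of 3.98 ± 0.70 and 3.47 ± 0.80. In each library these 4 genes were higher in members. VCAN, the large proteoglycan versican, stood apart with 1018, 1147, 763 and 807 CPM in members and 1127, 714, 642 and 819 CPM in remaining cells, a log2 ratio of 0.19 ± 0.37. The laminin chains LAMB1 and LAMC1, which epithelia also make, had log2 ratios of 0.78 ± 0.11 and 0.51 ± 0.11.

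Enzymes that process collagen followed with 16 of 21 genes over 1 in all 4 libraries. PCOLCE, an enhancer of procollagen cleavage, had a log2 ratio of 3.73 ± 0.77, and the lysyl oxidases LOX and LOXL2, which cross-link collagen, had 3.23 ± 0.27 and 3.40 ± 0.65. SERPINH1, the collagen chaperone of the endoplasmic reticulum, stood at 611, 562, 556 and 708 CPM against 210.5, 157, 129 and 190.5 CPM. The gelatinase MMP2 and the inhibitor TIMP1 had log2 ratios of 3.37 ± 0.77 and 1.94 ± 0.30. LOXL4 was the exception in this list, with 1.17, 3.13, 3.26 and 3.94 CPM in members and 19.1, 11.4, 17.7 and 19.7 CPM in remaining cells.

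The 15 genes chosen by the highest value of their weakest log2 ratio over the 4 libraries, with at least 20 CPM in members, were DKK2, EDNRA, OGN, NPR3, PDGFRA, KCNE4, EMILIN1, PDGFRB, SULF1, HGF, COL6A3, HHIP, COL8A1, TBX2 and ISLR. DKK2, a secreted modulator of WNT receptors (chr4:106921802-107283806 in GRCh38), led with 296, 179, 187 and 197 CPM in members and 30.6, 8.03, 6.78 and 12.3 CPM in remaining cells. EDNRA, the endothelin receptor of contractile cells (chr4:147480917-147544954), stood at 142, 112, 119 and 121 against 14.3, 4.61, 4.22 and 9.91 CPM. NPR3, the natriuretic peptide clearance receptor, stood at 53.2, 81.7, 26.1 and 44.5 against 4.88, 2.503, 1.22 and 2.79 CPM. KCNE4, a potassium channel subunit, and SULF1, a heparan sulfate sulfatase, had log2 ratios of 3.78 ± 0.61 and 3.68 ± 0.42. ISLR, which marks mesenchymal progenitors, had 3.64 ± 0.46. Their means ran from 3.62 to 4.03 over the 15 genes, and from 3.06 to 3.78 with cells thinned to 1000 UMIs and the gate applied again.

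**Figure D2:**
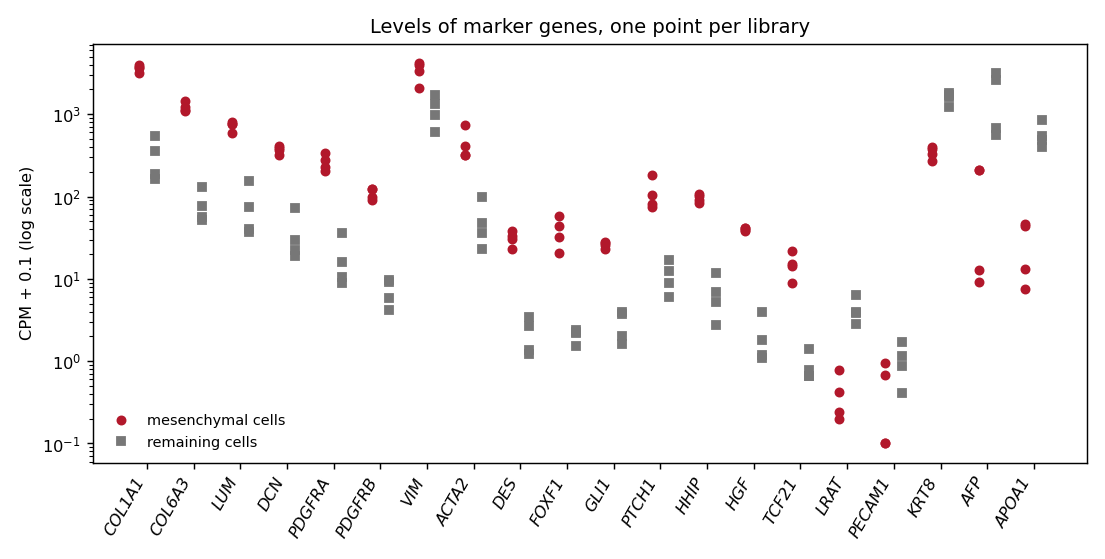
Levels of 20 genes as CPM plus 0.1 on a log scale, with 1 red circle per library for mesenchymal cells and 1 grey square per library for remaining cells. From COL1A1 to TCF21 every circle lies above the squares of the same gene, LRAT and the epithelial genes KRT8, AFP and APOA1 show the reverse order, and PECAM1 is near the bottom of the axis in both.

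Receptors and secreted signals were higher more often than lower. Of 30 receptors at 10 CPM or more, 17 were over 1 in all 4 libraries and 1 was under -1. PDGFRB, the platelet-derived growth factor receptor of pericytes, stood at 91.9, 97.8, 123 and 122 CPM against 9.45, 4.09, 5.82 and 9.11 CPM. DDR2, a collagen-binding receptor kinase, and ITGA8 and ITGA11, integrin chains of mesenchyme, had log2 ratios of 3.53 ± 0.52, 3.65 ± 0.48 and 3.52 ± 0.61. LGR5, a receptor for R-spondins known from gut stem cells, was lower, with 0.781, 2.24, 1.38 and 1.08 CPM in members and 9.502, 9.54, 12.2 and 9.99 CPM in remaining cells.

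Among 37 secreted signals 22 were over 1 in all 4 libraries and 4 under -1. HGF, the hepatocyte growth factor that stellate cells give to hepatocytes (chr7:81699010-81770438), stood at 41.8, 37.6, 40.9 and 38.7 CPM in members and 3.86, 1.07, 1.01 and 1.73 CPM in remaining cells. The member values of the 4 libraries lay within 37.6 to 41.8 CPM. RSPO3, a WNT enhancer, stood at 159.8, 129.8, 135 and 156 against 22.6, 6.79, 6.495 and 11.8 CPM. CXCL12, the chemokine that retains blood progenitors, PTN, the growth factor pleiotrophin, and IGF1 had log2 ratios of 3.14 ± 0.63, 3.55 ± 0.68 and 3.09 ± 0.78. WNT2 and WNT5A had 3.42 ± 0.70 and 2.31 ± 0.52, and the BMP antagonist GREM1 3.71 ± 0.56. In the reverse direction stood PDGFA, a ligand of PDGFRA, with 7.09, 15.2, 3.85 and 4.52 CPM in members and 67.97, 90.4, 37.2 and 32.5 CPM in remaining cells, and VEGFA, the vascular growth factor, with 19.1, 27.5, 23.4 and 22.4 and 85.1, 96.6, 70.5 and 79.6 CPM.

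Hedgehog pathway genes divided by role. Of the list of receptors, transcription factors and targets, 9 of the 9 genes at 10 CPM or more were over 1 in all 4 libraries, with a median log2 ratio of 3.04. PTCH1, the receptor that hedgehog signalling itself induces, stood at 104, 185, 82.04 and 75.4 CPM in members and 16.9, 12.4, 5.95 and 8.75 CPM in remaining cells, highest in untreated replicate 2. GLI1, the transcription factor induced by the pathway, stood at 26.03, 27.5, 23.2 and 28.2 against 3.65, 1.95, 1.53 and 3.87 CPM, and its groups of libraries overlapped. HHIP, a decoy for hedgehog ligands, had a log2 ratio of 3.81 ± 0.69, and the co-receptors BOC and GAS1 had 2.80 ± 0.66 and 2.59 ± 0.56. The signal transducer SMO had a log2 ratio of 1.67 ± 0.41. The ligands were on the other side. SHH stood at 0.846, 5.82, 0.395 and 0.717 CPM in members and 35.3, 62.7, 29.9 and 29.4 CPM in remaining cells, and IHH at 0.455, 3.803, 0.593 and 0.43 against 11.5, 30.4, 28.1 and 20.5 CPM. Member values of both ligands were highest in untreated replicate 2, the library with the largest share of epithelial-marked sub-clusters. DHH was at or under 0.215 CPM everywhere.

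PTCH1 carried the only match to a GLI motif among the 7 hedgehog genes of 12 that had an entry in the RefSeq promoter table, so its sequence is shown. The table holds 5 windows for PTCH1, and 1 of them had the match. The motif searched was GACCACCCA on both strands, which occurs in 0.236% of the 35116 RefSeq promoter windows. The window ends at the base before a PTCH1 start site on the minus strand of chromosome 9 (RefSeq, GRCh38.p14, chr9:95509267-95509516), and the capitals mark the motif as its reverse complement, TGGGTGGTC, which begins 172 bases before the start.
PTCH1: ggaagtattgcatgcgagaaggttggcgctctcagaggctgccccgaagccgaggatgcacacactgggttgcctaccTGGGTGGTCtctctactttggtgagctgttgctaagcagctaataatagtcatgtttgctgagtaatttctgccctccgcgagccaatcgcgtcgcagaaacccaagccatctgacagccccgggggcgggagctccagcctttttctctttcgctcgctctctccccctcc
The match describes these letters and shows no binding.

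Regulators and positional genes came next. Of 14 mesenchymal regulators 13 were over 1 in all 4 libraries, among them the transcription factors PRRX1, TWIST1, ZEB1 and ZEB2 with log2 ratios of 3.83 ± 0.64, 3.48 ± 0.66, 3.32 ± 0.41 and 3.71 ± 0.56. The list of visceral mesoderm and gut tube mesenchyme had 9 of 14 over 1. FOXF1, a hedgehog-responsive factor of gut and liver mesenchyme, stood at 20.6, 57.5, 43.2 and 32.4 CPM against 2.31, 2.15, 1.44 and 2.09 CPM. HAND2, TBX5 and HLX, which act in lateral and hepatic mesoderm, had log2 ratios of 3.34 ± 0.58, 2.89 ± 0.34 and 3.00 ± 0.45. TBX2 stood at 45.7, 49.2, 51.8 and 61.4 against 4.54, 1.67, 2.32 and 4.41 CPM. GATA4 and GATA6, which liver epithelium and mesoderm share, were lower in members, with log2 ratios of -1.12 ± 0.26 and -0.97 ± 0.22. BARX1, a factor of stomach mesenchyme, stood at 0.26, 0.224, 0.198 and 0.215 CPM in members and 2.600, 0.993, 1.55 and 3.46 CPM in remaining cells.

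HOX genes, which record position along the body axis, had 7 of 12 over 1 in all 4 libraries and 0 under -1. HOXB4 and HOXB5 stood at 29.2, 25.5, 20.4 and 27.2 and at 13.7, 18.3, 13.6 and 13.7 CPM in members. Posterior members of the clusters were also found. HOXA11 stood at 13.1, 8.73, 14.8 and 19.6 CPM in members and 2.38, 1.07, 1.99 and 1.94 CPM in remaining cells, HOXD11 at 20.7, 9.84, 21.3 and 17.6 against 3.45, 1.03, 1.25 and 1.83 CPM, and HOXA13 at 9.24, 11.6, 11.8 and 9.46 against 1.798, 1.35, 1.27 and 1.99 CPM. All 3 were higher in members in each library.

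Markers of the liver's mesenchymal cell types were mixed. Of 20 stellate cell markers 12 reached 10 CPM, and of these 8 were over 1 and 1 was under -1 in all 4 libraries. LRAT, the enzyme that makes the retinyl esters for which stellate cells are known, stood at 0.325, 0.671, 0.0988 and 0.143 CPM in members and 3.89, 6.28, 3.696 and 2.76 CPM in remaining cells. After thinning, an LRAT UMI was found in 0.0297, 0.161, 0.059 and 0% of members against 0.673, 0.631, 0.175 and 0.282% of the EPCAM-positive cells. These cells may express LRAT themselves, so their share is no measure of free RNA for it. Without thinning the shares were 0.143, 0.208, 0.0562 and 0.198% and 2.84, 3.86, 3.62 and 4.34%. GFAP was at or near 0, with 0, 0.224, 0.0988 and 0 CPM, and RELN, another stellate marker, was lower in members, with 1.56, 7.16, 2.87 and 1.36 against 33.9, 27.3, 26.9 and 59.6 CPM. DES (desmin), PTH1R and CYGB, which stellate cells share with other mesenchyme, had log2 ratios of 3.43 ± 0.36, 2.99 ± 0.25 and 2.93 ± 0.76. HGF and HAND2 are members of this list as well.

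Portal fibroblast markers had 6 of 6 over 1 at 10 CPM or more, but ENTPD2, CD34, CLEC3B and PI16 did not reach that level. CD34 stood at 0, 0, 0 and 0.143 CPM in members. The 6 are GREM1, MFAP4, FBLN2, ELN, SLIT2 and THY1, which other mesenchyme expresses as well. Smooth muscle and myofibroblast genes had 13 of 15 over 1. ACTA2, smooth muscle actin, stood at 736, 318, 319.7 and 406 CPM in members and 97.2, 22.9, 36.3 and 48.04 CPM in remaining cells, highest in untreated replicate 1. CNN1 and TAGLN, further contractile proteins, had log2 ratios of 2.79 ± 0.41 and 2.23 ± 0.40. MYH11, the myosin of mature smooth muscle, stood at 1.11, 0.447, 0.692 and 0.717 CPM in members and 0.389, 1.15, 0.59 and 0.439 CPM in remaining cells, and was near 0 in both. Of 5 pericyte genes 4 were over 1, CD248 and ANGPT1 among them with 3.85 ± 0.70 and 3.35 ± 0.34.

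Defining markers of several other lineages were at or near 0, while other genes of their lists were not. The defining genes of muscle (MYOD1, MYOG, MYF5 and PAX7) were at or near 0, with at most 0.0717 CPM in members, and SOX10 and FOXD3 of neural crest were at 0. The 16 genes of the neural list summed to 268, 198, 211 and 290.1 CPM in members and 358, 254, 306 and 375 CPM in remaining cells, and of 3 at 10 CPM or more 1 was over 1 and 1 under -1. STMN2, a microtubule regulator of neurons, was the higher one, with 99.03, 83.9, 90.1 and 114 CPM in members and 40.1, 8.22, 25.2 and 17.4 CPM in remaining cells. TUBB3, a tubulin of neurons, stood at 145, 82.1, 106 and 156 against 226, 104, 159 and 238 CPM, and the receptor ERBB3 was the lower one, with -4.15 ± 0.99. Of blood and macrophage genes PTPRC stood at 0.13, 0, 0 and 0.0717 and C1QA at 0, 0, 0 and 0 CPM. That list summed to 13.5, 117, 25.9 and 13.6 CPM in members and 335, 681, 703 and 578 CPM in remaining cells. Its 2 genes at 10 CPM or more were both under -1 in all 4 libraries. PECAM1, VWF and CLDN5 of endothelium stood at 0.846, 0, 0 and 0.573, at 0, 0, 0 and 0.0717 and at 0, 0, 0.0988 and 0.0717 CPM. Of the 3 endothelial genes at 10 CPM or more, 2 were over 1 and 1 was lower in all 4 libraries. EMCN and ERG were the higher ones, with 29.3, 26.4, 28.3 and 27.2 CPM and 19.3, 13.2, 13.5 and 15.8 CPM and log2 ratios of 3.34 ± 0.34 and 2.94 ± 0.24. EGFL7 was the lower one, with 44.7, 41.8, 56.04 and 58.1 CPM in members, 64.03, 60.3, 85.9 and 81.2 CPM in remaining cells and a log2 ratio of -0.53 ± 0.06. Of the 4 mesothelial genes at 10 CPM or more, 1 was over 1 and 1 under -1 in all 4 libraries. PDPN was the higher one, with a log2 ratio of 3.19 ± 0.77, and UPK1B the lower one, with 2.86, 4.25, 1.19 and 0.645 CPM in members, 46.3, 44.2, 26.02 and 46.2 CPM in remaining cells and a log2 ratio of -3.80 ± 0.74. ALDH1A2 and GPM6A had log2 ratios of 1.93 ± 0.83 and 0.53 ± 0.32. WT1, at lower CPM, had 2.48 ± 0.25, while MSLN, UPK3B and ITLN1 stayed near 0 with 0.0651, 1.12, 0.297 and 0.143, 0.26, 0, 0.0988 and 0 and 0, 0, 0 and 0 CPM. In the cartilage and bone list, 2 of 8 genes at 10 CPM or more were over 1 and 4 were under -1 in all 4 libraries. The median log2 ratio was -0.82. COL9A1 was a higher one, with 34.9, 34.7, 42.2 and 34.5 CPM in members and 4.23, 2.26, 2.17 and 1.76 CPM in remaining cells. SOX9, which is also a duct gene, was lower with a log2 ratio of -2.45 ± 0.42, and ACAN stood at 0.0651, 0, 0 and 0.0717 CPM in members.

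Epithelial genes were lower throughout. All 14 hepatocyte genes at 10 CPM or more were lower in members in all 4 libraries, 13 of them under -1, and all 17 gut and ductal genes were under -1. The summed level of the hepatocyte list was 711, 1442, 499 and 146 CPM in members and 16541, 13816, 15828 and 12759 CPM in remaining cells. It was highest in untreated replicate 2 and lowest in OA control replicate 2, and without the epithelial-marked sub-clusters it was 344, 273, 177 and 137 CPM. For gut and ductal genes the sums were 1325, 1595, 1020.2 and 969 CPM in members and 10984, 10846, 11592 and 10621 CPM in remaining cells. Without the epithelial-marked sub-clusters the member sums were 974, 751, 681 and 888 CPM, so untreated replicate 2 went from the highest to the second lowest value. The 10 genes lowest in members by the fixed rule were CEACAM5, LIPH, NTS, TFF2, TFF1, TFF3, PHGR1, RBP2, TSPAN1 and C19orf33. CEACAM5, a gut epithelial adhesion molecule, had a log2 ratio of -5.20 ± 0.53, and the trefoil peptides TFF1, TFF2 and TFF3 of mucous epithelium had -5.23 ± 0.98, -4.88 ± 0.85 and -5.14 ± 1.07. With cells thinned to 1000 UMIs and the gate applied again to the thinned counts, the ratios of these 10 genes were closer to 0. They ran from -3.77 for TFF1 to -2.93 for RBP2, with -3.19 for CEACAM5 and -3.37 for TFF3. The members before and after thinning were not all the same cells. Unthinned and without the epithelial-marked sub-clusters the 10 ratios ran from -5.97 for CEACAM5 to -5.21 for TSPAN1, each lower than with them. TFF3 stood, unthinned, at 52.4, 142, 40.1 and 10.2 CPM in members and 1274, 2379, 1745 and 1028 CPM in remaining cells. KRT8 and KRT18, keratins of simple epithelium, remained at 399, 327, 268 and 380.3 and at 534, 485, 421 and 400.2 CPM in members. How much free RNA adds to these levels was not tested.

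**Figure D3:**
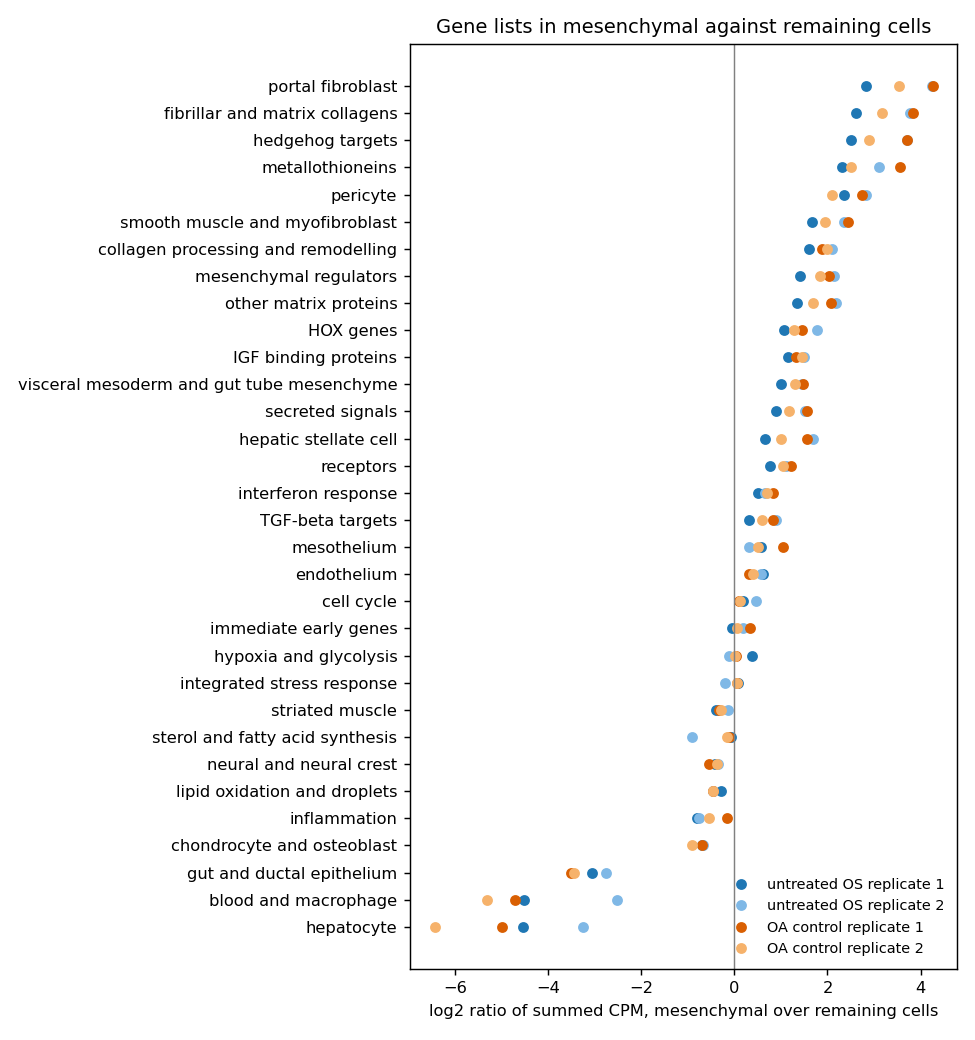
Log2 ratio of each list's summed CPM in mesenchymal over remaining cells, with 1 point per library and lists ordered by their mean. Portal fibroblast genes, collagens and hedgehog targets lie farthest to the right, hepatocyte genes farthest to the left with points from -3.26 in untreated replicate 2 to -6.44 in OA control replicate 2.

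Some genes of lists that are not tied to a cell type differed between members and remaining cells. The interferon list had 7 of 14 genes higher and 5 lower in all 4 libraries, with a median log2 ratio of 0.17. The inflammation list had 8 of 18 higher and 8 lower, with a median of -0.14. Over all genes 43% were higher and 34.7% lower, with a median of 0.07. Of 2 metallothioneins at 10 CPM or more, 1 was over 1. MT2A, a metallothionein that binds zinc and copper, stood at 476, 232, 611 and 339 CPM in members and 83.3, 15.97, 42.9 and 47.3 CPM in remaining cells. Of 6 IGF binding proteins 4 were over 1, IGFBP5 with 3.21 ± 0.57 and IGFBP3 with 2.39 ± 0.66, while IGFBP2 stood near equality with -0.03 ± 0.17. IFITM3, IFITM2 and BST2, antiviral membrane proteins of the interferon list, had log2 ratios of 2.52 ± 0.36, 1.90 ± 0.26 and 3.25 ± 0.49, and the sensor OAS1 had -3.34 ± 0.40. In the inflammation list the adhesion molecule VCAM1 and the chemokine CCL2 were higher, with 3.70 ± 0.65 and 2.47 ± 0.79, and the chemokine CCL20 and the cytokine IL32 were lower, with -4.37 ± 0.50 and -3.90 ± 0.19. Of 17 TGF-beta targets 5 were over 1, among them TGFBI and LTBP1 with 1.95 ± 0.39 and 2.04 ± 0.30, and 0 were under -1. The lists of stress response, immediate early, hypoxia and sterol genes had at most 1 gene each over 1 and at most 2 under -1. Their medians ran from -0.32 to 0.07. Of 21 sterol genes 11 were lower and 3 higher in all 4 libraries, and of 14 hypoxia genes 6 were lower and 1 higher. The stress response list had 4 higher and 4 lower, and the immediate early list 6 higher and 6 lower.

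Cell cycle genes were slightly higher. Of 24 genes 15 were above 0 in all 4 libraries and 1 was over 1, against 43% of all genes above 0 in all 4. CDK1, the kinase that drives mitosis, stood at 74.05, 78.3, 60.8 and 73.97 CPM in members and 32.4, 30.9, 29.3 and 32.96 CPM in remaining cells. TOP2A, the topoisomerase of dividing cells, stood at 149, 232, 129 and 169 against 73.4, 96.1, 72.2 and 90.3 CPM. CCND1, a cyclin of the G1 phase, had the opposite order with 97.5, 94.2, 76.2 and 107 and 279, 255, 275 and 317 CPM.

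The 7740 members were not uniform among themselves. The sub-clusters are numbered 0 to 8, their leading genes define them, and levels below are means over the libraries with at least 20 cells in the sub-cluster. The groups depend on the clustering resolution of 0.5. At 0.3, a group of 3042 cells had EGFL6 of sub-cluster 3 and ITGA1 of sub-cluster 0 among its leading genes. Another of 2597 cells had OGN of sub-cluster 4 and SCRG1 of sub-cluster 1, and no group was led by TCF21 of sub-cluster 6. Sub-cluster 0 had 1278 cells and held 18.96%, 8.80%, 13.0% and 25.2% of the members of the 4 libraries. Among its 50 leading genes were 3 of the 18 smooth muscle markers, 1 of them in the first 10. CNN1 stood at 79.95 CPM there and 27.7 CPM in the other members, and ACTA2 at 797 CPM. ACTG2 of the same list was highest in sub-cluster 3, with 190 CPM against 102 CPM in sub-cluster 0. PLN, the phospholamban of muscle calcium pumps and not on that list, stood at 33.6 against 5.25 CPM. The cells of sub-cluster 0 had a median of 6807 UMIs, 1.59 times the median of their own libraries. The part of depth in this group was not tested. Sub-cluster 3, with 1025 cells and a median of 6402 UMIs, was also deep. It was led by EGFL6, a secreted EGF-like protein, at 108 against 8.502 CPM, and by PDPN and DLK1, a fetal Notch ligand relative, at 1173 against 251 CPM. It held 11.6%, 7.48%, 19.3% and 16.5% of the members. The acute phase gene SAA1 was also among its leading genes, but at a clustering resolution of 0.8 in place of 0.5 SAA1 led a separate group of 93 cells, with 862 against 5.32 CPM, apart from the 960 cells led by EGFL6.

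Sub-cluster 1 had 1277 cells and held 24.1%, 7.21%, 12.02% and 11.3% of the members, the largest share in untreated replicate 1. SCRG1 led it, with 155 against 21.6 CPM. NPNT, the matrix ligand nephronectin, stood at 65.5 against 8.15 CPM, ELN (elastin) at 53.1 against 7.697 CPM, and EN1, a homeobox factor, at 51.5 against 9.05 CPM. Sub-cluster 4, with 1099 cells, held 12.6%, 10.3%, 17.3% and 19.9%. OGN stood at 232 CPM there and 28.04 CPM in the other members, and PITX1, a hindlimb and hindgut factor, at 172 against 30.2 CPM. The posterior HOX genes HOXA10, HOXA11, HOXA13, HOXD9, HOXD10, HOXD11 and HOXD13 all had their highest level in this sub-cluster, HOXA13 with 35.7 CPM in sub-cluster 4 and 21.5 CPM in sub-cluster 6 against 2.599 CPM in sub-cluster 0 and 2.12 CPM in sub-cluster 1.

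Sub-cluster 6, with 643 cells and 8.64%, 9.08%, 7.87% and 6.84% of the members, was spread over all 4 libraries. TCF21, a factor of visceral mesenchyme and stellate cell precursors, led it with 74.7 against 11.1 CPM. The ephrin receptor EPHA4 stood at 114 against 21.9 CPM and COLEC10, a lectin of stellate cells, at 41.1 against 7.71 CPM. PTCH1 ran from 14.3 CPM in sub-cluster 8 and 44.9 CPM in sub-cluster 2 to 283 CPM in sub-cluster 6. FOXF1 stood at 90.6 CPM in sub-cluster 6 and 82.8 CPM in sub-cluster 3, against 5.47 CPM in sub-cluster 1 and 9.14 CPM in sub-cluster 4, while FOXF2 had its highest level in sub-cluster 4, with 71.1 CPM. LRAT stayed at or under 2.03 CPM in every sub-cluster. Only 2 stellate markers were among the 50 leading genes of sub-cluster 6, so no cell type name is given.

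Sub-cluster 5, with 919 cells, was the cycling one. TOP2A stood at 1002 CPM there and 20.9 CPM in the other members, and MKI67, the proliferation antigen, at 366 against 10.5 CPM. It held 11.2%, 11.5%, 13.1% and 12.4% of the members, the narrowest range of percentage points among the 9. Sub-cluster 2, with 374 cells, was led by GPM6A and LRRC75A and was shallow, with a median of 1284.5 UMIs.

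The 2 epithelial-marked sub-clusters differed from each other. Sub-cluster 7, with 779 cells, held 4.56%, 30.3%, 9.94% and 0.496% of the members and had a median of 1329 UMIs. SERPINA1, the hepatocyte product antitrypsin, stood at 5808 CPM there and 159.6 CPM in the other members, and the fetal serum protein AFP at 2584 against 36.7 CPM. The AFP level there is a mean over 3 libraries that ran from 186 to 6371 CPM. Of its cells 34.5% were among those left out as doublets, against 0.637% to 8.67% in the other 8 sub-clusters. COL1A1 stood at 2026 CPM there. Sub-cluster 8, with 346 cells, held 5.22%, 6.72%, 2.98% and 1.29%. Squamous keratins led it, KRT5 at 1288 against 2.13 CPM and KRT6A at 1087 against 0.862 CPM, and COL1A1 stood at 965 CPM. Of its cells 8.67% were among those left out as doublets. Whether these cells were doublets, held free RNA or carried both programmes was not tested.

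**Figure D4:**
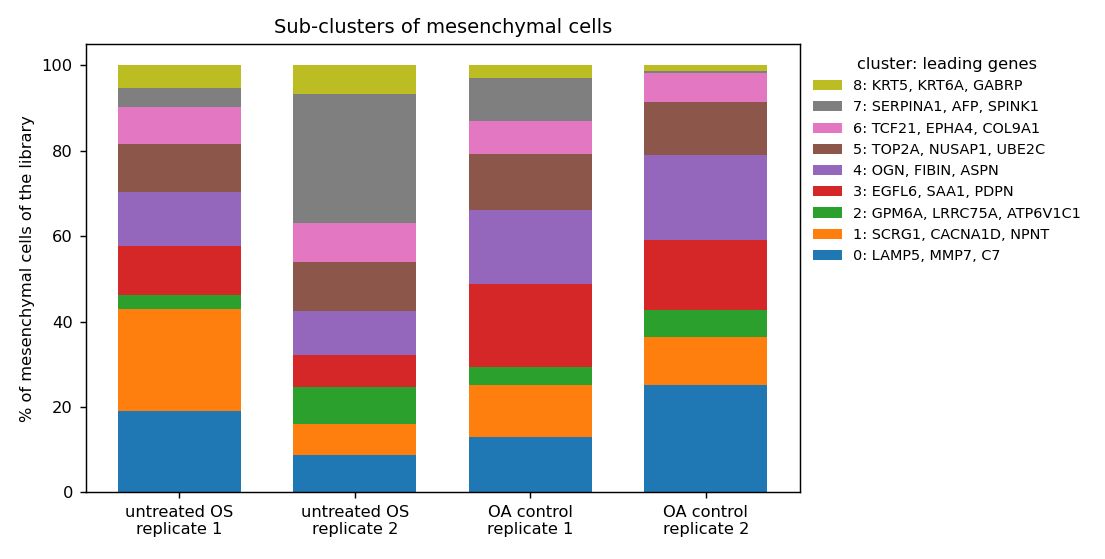
Share of each library's mesenchymal cells in the 9 sub-clusters, in percent, with 1 stacked bar per library and each sub-cluster labelled with 3 of its leading genes. The cycling sub-cluster 5 holds 11.2% to 13.1% in every bar, while sub-cluster 7 takes 30.3% of untreated replicate 2 and 0.496% of OA control replicate 2.

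The comparison of OA control with untreated organoids asked which genes of the mesenchymal cells differed between these sets of controls. Culture, handling or library preparation that went with the group cannot be told apart from what the control organoids received. UMIs were summed over the members of each library and tested with edgeR's quasi-likelihood test. Of 14817 genes tested, 5 passed a Benjamini-Hochberg adjusted p of 0.05, which is 0.0337%. All 5 were lower in the OA control, and 0 were higher. At an unadjusted p of 0.05, 2720 genes passed, or 18.4%, and DESeq2 called 63. The groups of libraries did not overlap in CPM for 51.2% of the genes. The 5 genes were AFP, RBP2, HIST1H1E, HIST1H1B and ITGB6.

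AFP, which the fetal liver epithelium secretes (chr4:73431138-73456174), stood at 209, 211, 12.8 and 9.103 CPM in members. It was lower by 4.10 ± 0.25 on the log2 scale in the OA control, with an edgeR adjusted p of 0.000402. Here and below, ± on a difference is its size divided by the square root of edgeR's F statistic, not a separately estimated SE. In remaining cells AFP stood at 3152, 2576, 553 and 680.3 CPM, a log2 difference of -2.08 ± 0.22 with an adjusted p of 0.258. The untreated libraries were higher in both sets of cells, with no overlap. After thinning to 1000 UMIs an AFP UMI was found in 8.07, 16.1, 2.36 and 1.41% of members and 50.5, 61.3, 27.2 and 27.1% of EPCAM-positive cells without gate UMIs, and in 22.9, 26.6, 5.62 and 11.8% and 73.7, 81.2, 57.8 and 68.8% without thinning. AFP was a leading gene of sub-cluster 7, which took 4.56%, 30.3%, 9.94% and 0.496% of the members. Without sub-clusters 7 and 8 its difference was -2.56 ± 0.25, with an edgeR adjusted p of 0.00263.

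RBP2, a retinol-binding protein of the gut epithelium (chr3:139452884-139480747), stood at 21.9, 49.9, 1.48 and 1.65 CPM in members. It was lower by 4.304 ± 0.43 in the OA control (edgeR adjusted p = 0.0138). In remaining cells it stood at 374, 739.6, 186 and 117 CPM, with no overlap between the groups. The log2 difference there was -1.75 ± 0.48, with an edgeR adjusted p of 0.260. ITGB6, an integrin chain of epithelia that activates latent TGF-beta (chr2:160099667-160200313), stood at 24.4, 29.5, 5.04 and 3.51 CPM in members. It was lower by 2.50 ± 0.26 in the OA control (edgeR adjusted p = 0.0127). ITGB6 was among the 10 leading genes of sub-cluster 8, with 328 CPM against 4.09 CPM in the other members. Without sub-clusters 7 and 8 its difference was -1.31 ± 0.45 with an adjusted p of 0.198, so the call was lost, while RBP2 was still called. ITGB6 also missed the threshold with a stricter gate, at an adjusted p of 0.0515, and RBP2 missed it with cells thinned to 1000 UMIs, at -2.87 and an adjusted p of 0.231.

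HIST1H1E and HIST1H1B are genes of linker histone H1, which binds the DNA between nucleosomes. Replication histone mRNAs mostly lack the poly(A) tail that 3′ libraries prime on. HIST1H1E (named H1-4 in RefSeq) stood at 352, 213, 35.9 and 39.6 CPM in members and at 396, 235, 36.3 and 40.8 CPM in remaining cells. It was lower by 2.75 ± 0.27 in members of the OA control (edgeR adjusted p = 0.0127). The difference in remaining cells was -2.87 ± 0.24 with an adjusted p of 0.258. HIST1H1B (H1-5 in RefSeq) stood at 251, 259, 57.9 and 46.2 CPM in members and at 116, 132, 34.6 and 30.02 CPM in remaining cells. It was lower by 2.13 ± 0.22 in members of the OA control (edgeR adjusted p = 0.0127). In both sets of cells the untreated libraries were higher, with no overlap. Without sub-clusters 7 and 8 both H1 genes were still called. HIST1H1B was also a leading gene of the cycling sub-cluster 5, with 842 CPM against 33.4 CPM in the other members, and the share of that sub-cluster was 11.2%, 11.5%, 13.1% and 12.4%.

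Of 45 replication histone genes tested, 36 were lower in the OA control and 9 higher, with a median log2 difference of -0.48 against 0.00 over all genes tested, and 2 were called. Without sub-clusters 7 and 8, 4 of 44 were called. Over all genes tested, 5 of 14817 were called with these sub-clusters and 8 of 14458 without them. HIST1H1C and HIST1H1D, the other H1 genes tested, had differences of -1.08 ± 0.22 and -1.11 ± 0.20, which did not pass (adjusted p = 0.126 and 0.123). Among core histones, the H2A genes HIST1H2AK and HIST1H2AM had -2.13 ± 0.28 and -1.98 ± 0.40 and the H3 gene HIST1H3G had -1.93 ± 0.27, which did not pass either (adjusted p = 0.0610, 0.130 and 0.0741). HIST1H4C, a gene of the core histone H4, went the other way with 0.93 ± 0.25 (adjusted p = 0.170). Histone genes were found through their names after the difference had been seen, so these calls include the H1 genes that prompted the list.

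The promoters of the 2 called H1 genes are shown because both genes differed in the same direction. H1 promoters are known for an H1 box and a CCAAT box, so AAACACA and CCAAT were searched on both strands. All 4 tested H1 genes had an H1 box in the RefSeq window of 250 bases before to 50 after the start. They include HIST1H1C and HIST1H1D, which were not called. As H1 promoters are known for this box, its presence could be foreseen and nothing is read from it. AAACACA occurred in 5.64% of the 35116 promoters and CCAAT in 34.6% of them. The 250 bases before the start follow (GRCh38.p14, HIST1H1E on the plus strand at chr6:26156079-26156328, HIST1H1B on the minus strand at chr6:27867589-27867838), with matches to either motif in capitals, ATTGG being CCAAT on the other strand.
HIST1H1E: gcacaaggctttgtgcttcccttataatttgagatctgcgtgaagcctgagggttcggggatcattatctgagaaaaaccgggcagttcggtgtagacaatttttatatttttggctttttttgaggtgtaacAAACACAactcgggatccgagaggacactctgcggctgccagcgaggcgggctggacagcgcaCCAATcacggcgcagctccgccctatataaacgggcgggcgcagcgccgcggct
HIST1H1B: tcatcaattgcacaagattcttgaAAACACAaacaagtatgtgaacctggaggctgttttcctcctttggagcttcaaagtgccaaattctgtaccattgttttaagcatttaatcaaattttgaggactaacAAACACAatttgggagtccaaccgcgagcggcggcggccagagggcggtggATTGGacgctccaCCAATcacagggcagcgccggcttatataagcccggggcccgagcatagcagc
In both genes an H1 box begins 117 bases before the start, and HIST1H1B holds a further one at 226 bases. The matches were found by sequence alone and say nothing of what bound there.

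**Figure D5:**
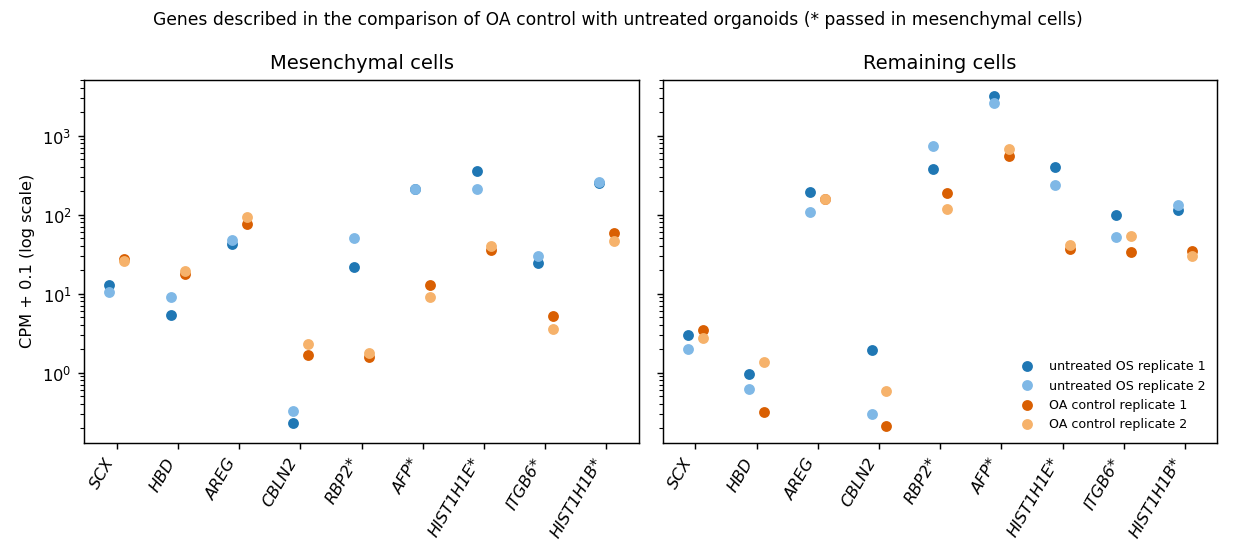
Levels of 9 genes of the comparison, as CPM plus 0.1 on a log scale, in mesenchymal cells on the left and remaining cells on the right, with 1 point per library in blue for untreated and orange for OA control. The 5 genes with an asterisk passed in mesenchymal cells. For HIST1H1E, HIST1H1B, AFP and RBP2 the blue and orange points are apart in both panels.

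No gene passed in the higher direction. SCX, HBD, AREG and CBLN2 were among the genes with the smallest unadjusted p in that direction. SCX, the tendon factor scleraxis, stood at 12.9, 10.5, 27.5 and 25.9 CPM in members, a difference of 1.32 ± 0.21 (edgeR adjusted p = 0.0900). SCX was a leading gene of sub-cluster 4, whose share was 12.6%, 10.3%, 17.3% and 19.9%. HBD, a globin gene among the leading genes of sub-cluster 3, stood at 5.21, 8.95, 17.6 and 19.4 CPM (1.64 ± 0.27, adjusted p = 0.104), beside shares of 11.6%, 7.48%, 19.3% and 16.5% for that sub-cluster. The part of these shares in the differences was not tested. AREG, the EGF receptor ligand amphiregulin, stood at 42.5, 48.3, 75.6 and 93.9 CPM in members and 194, 108, 158 and 158 CPM in remaining cells. CBLN2 was at or under 2.22 CPM in every library. Each of these genes passed under some of the other settings and not under others.

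By list, the mesenchymal genes showed no call in either direction. Over all genes only 5 of 14817, or 0.0337%, were called, so nothing is read from the lack of calls in short lists. Of the 15 collagens tested 7 were higher and 8 lower in the OA control, with a median log2 difference of -0.17, and COL1A1 differed by 0.02 ± 0.23 (edgeR adjusted p = 0.977). COL12A1 had the largest difference of that list, -1.06 ± 0.31, which did not pass (adjusted p = 0.175). Of 27 other matrix proteins 18 were higher, with a median of 0.23. In the stellate list 13 of 16 were higher, with a median of 0.29, among them CYGB and NTM with 0.98 ± 0.32 and 0.61 ± 0.18 (adjusted p = 0.202 and 0.181). Of 17 smooth muscle genes 11 were lower, with a median of -0.16, and SYNPO2 and MYOCD differed by -1.29 ± 0.25 and -0.84 ± 0.25 (adjusted p = 0.123 and 0.184). Of 12 hedgehog genes 7 were higher. PTCH1 differed by -0.71 ± 0.26 (adjusted p = 0.229) and GLI1 by 0.11 ± 0.19 (adjusted p = 0.793). Of 48 secreted signals 24 were higher and 24 lower, HGF with 0.16 ± 0.19 (adjusted p = 0.675). In the inflammation list 14 of 20 were higher, CCL2 and PTX3 with 0.98 ± 0.24 and 0.81 ± 0.23 (adjusted p = 0.152 and 0.174). These counts stand beside 7455 of 14817 genes that were higher.

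Epithelial lists lay on 1 side. All 14 hepatocyte genes tested were lower in the members of the OA control, with a median log2 difference of -2.47, and 1, AFP, was called. All 17 gut and ductal genes were lower, with a median of -1.73 and 0 called. In remaining cells the medians were -0.74 and 0.00. Without sub-clusters 7 and 8, 12 of 12 hepatocyte genes were lower with a median of -1.79 and 2 called, AFP and APOB. Of the gut and ductal genes 14 of 17 were lower with a median of -0.88. Over all genes tested, 5 of 14817 were called with these sub-clusters and 8 of 14458 without them. These are genes of the epithelial cells that the gate was meant to leave out. In each group the library with the larger share of epithelial-marked sub-clusters had the higher summed hepatocyte level. Across groups the order did not hold. OA control replicate 1 had a share of 12.9% and 499 CPM, and untreated replicate 1 had 9.78% and 711 CPM. The part of this share in the differences was not tested.

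The number of calls depended on the libraries. Without untreated replicate 1 it was 2627, without untreated replicate 2 it was 3511, without OA control replicate 1 it was 103 and without OA control replicate 2 it was 27, and the 5 genes were among the calls each time. The lone library of a group is then assumed to vary like the pair of the other. Log2 CPM of members correlated across genes with Pearson's r of 0.964 between the untreated libraries and 0.985 between the OA control libraries, where genes are not independent replicates. Between groups r was 0.968 and 0.969 for untreated replicate 1 with OA control replicates 1 and 2, and 0.963 and 0.9497 for untreated replicate 2. By r, untreated replicate 1 was slightly closer to the OA control libraries than to its own replicate. Each other library had its lowest r with untreated replicate 2, the shallowest one, which also held the largest share of epithelial-marked sub-clusters. The part of depth and of this share in r was not tested. Counts were also simulated with 14817 genes from these libraries and 1 dispersion (0.0314) for all genes and libraries. There, 44% of genes changed by 1 on the log2 scale and 92% of those changed by 2 were recovered. The spread of single genes was not simulated, so these shares hold for that setting only. There were 9 false calls in that simulation, where 100 genes had been changed by 1 and 100 by 2. False calls at such a threshold rise with the number of genes called, so the 9 are no measure for the 5 calls on the data. How many of the 5 may be false was not tested.

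Whether the mesenchymal cells differed more or less than the remaining cells was tested as a difference of effects with the library as a block, since both sums of a library share its depth and free RNA. Of 17284 genes 0 passed an edgeR adjusted p of 0.05, with 1071 at an unadjusted p of 0.05, or 6.2% (4.5% on the side lower in members), and 27 called by DESeq2. Simulated differences of 1 and 2 on the log2 scale, drawn with the same dispersion for all genes, were recovered in 9% and 68% of genes. At that setting most differences of 1 were missed, and recovery in these libraries may differ. APOB, the apolipoprotein of liver and gut lipoproteins, had the smallest p. It stood at 7.35, 22.4, 0.395 and 0.215 CPM in members and 139, 291, 75.7 and 58.98 CPM in remaining cells, and its difference of effects was -3.83 ± 0.30 (edgeR adjusted p = 0.0901). For AFP the difference of effects was -2.07 ± 0.23 and for RBP2 -2.54 ± 0.25 (adjusted p = 0.239 and 0.212). In the other direction C1QL1, SLC7A7, NNAT, CBLN2 and RARRES1 had the smallest p. NNAT, the imprinted gene neuronatin, stood at 61.3, 44.5, 62.1 and 60.9 CPM in members and 25.03, 15.9, 8.46 and 12.3 CPM in remaining cells, a difference of effects of 1.19 ± 0.19 (adjusted p = 0.387).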

How the data were processed

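The authors deposited UMI counts per gene and cell barcode for each library. Cell Ranger 6.0.2 is named per the file headers, while the submitters' processing notes name Cell Ranger 3.0.2, bcl2fastq, Scanpy and GRCh38. The filter and gate were applied to these counts, which were summed per library over members and over remaining cells. Sums were tested with edgeR 4.0.16 in R 4.3.3 (TMM, filterByExpr, robust quasi-likelihood, Benjamini-Hochberg over all genes, threshold 0.05), fitted on the 4 libraries without the replicate number, and DESeq2 1.42.0 was an alternative. Members were clustered with scanpy 1.11.5 and leidenalg 0.10.2 (2000 variable genes, 30 principal components, 15 neighbours, resolution 0.5). Thinning drew 1000 UMIs per cell and left out shallower cells. For the share of members, ratios and tests, the gate was applied again to the thinned counts, so the members changed as well. In untreated replicate 1 this gave 3895 members, against 3369 original members that could be thinned. The percentages of thinned cells with a UMI of a gene used the original members.

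In the comparison, genes past the threshold with no overlap between groups and at least 10 CPM were named, and where fewer than 5 passed in a direction, the 5 smallest p; a gene that the rules name or a list holds is in places not reported here. In the profile the 15 highest and 10 lowest weakest ratios were named, among genes at 20 CPM or more. The members, the 33 gene lists and the rules were chosen with earlier results of these data known. Alternatives were other normalization, no filter on low counts, stricter cell filter and gate, doublets left out, thinning, a replicate block and each library left out. Leaving out the epithelial-marked sub-clusters and a crossed block were chosen after seeing the data. The test was checked on simulated counts. Gene positions are from GENCODE 44.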

Additional observations from a re-analysis of the deposited data

How the results depend on the processing

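The number of genes changed in mesenchymal cells was 5, and it was 512 with no filter on low counts, 63 with DESeq2, 38 with the stricter cell filter, 39 with thinned cells and 8 with the epithelial-marked sub-clusters left out, while leaving out 1 library gave 27 to 3511. It was 166 with the replicate block and 1528 with the crossed block. Same-numbered libraries deviated oppositely (r = -0.306 over 14817 genes). With 2 libraries per group the crossed pairing has the opposite sign by construction, so this check cannot show a shared batch. The labels state no shared batch, so the numbers were not taken to pair them. The difference of effects had 0 calls, 65 with no filter, 27 with DESeq2, 17 with thinned cells and 0 to 15 with 1 library left out, where replicate 1 of the OA control gave the 15. The cause of these shifts was not tested. The difference in share was 1.504 points and became -0.356 with thinned cells, -1.36 with the stricter gate, -1.99 without the EPCAM condition and -4.40 to 7.40 with 1 library left out; the replicate block left it at 1.504. The counts of the profile ranged from 633 to 923 genes over 1 and from 703 to 1083 under -1. They were lowest with thinned cells, which moved 14 of the 25 named ratios by more than their spread. Leaving out the epithelial-marked sub-clusters moved CEACAM5, LIPH, NTS and C19orf33 by more than their spread, to lower values (LIPH from -4.85 to -5.53). The stricter gate did so for LIPH and NTS, and the stricter cell filter for LIPH. AFP, HIST1H1E and HIST1H1B passed in every alternative run. The call of ITGB6 was lost with the stricter gate and without the epithelial-marked sub-clusters, and that of RBP2 with thinned cells. Depth limits untreated replicate 2 most, with a median of 1487 UMIs per barcode.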
